A study of Mus musculus with 2 samples.

Results

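The cells described here are wound dendritic cells that carried RNA of Cd209a and Klrd1, found among cells isolated from mouse skin wounds as monocytes and macrophages. Members were chosen by measured values, the UMI counts of these 2 genes: a member's barcode had at least 500 genes, under 10% mitochondrial UMIs, and a sum of at least 5 UMIs over Cd209a and Klrd1. A UMI (unique molecular identifier) count is the number of distinct captured RNA molecules. The rule found 131 members among 2878 cells that passed the filter (4.55%), 94 of 1123 in the non-diabetic library and 37 of 1755 in the diabetic library. The other 1029 and 1718 cells passing the filter served as the comparison.

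The study compared wounds of non-diabetic mice with wounds of diabetic mice on day 6 after injury. Each group was 1 single-cell 3' RNA library, made on the 10x Chromium platform from cells pooled over 2 mice. The labels name neither a strain, a genotype or an age nor the diabetic model, and they speak of the mice as belonging to different strains, so diabetes, strain and library cannot be told apart. With 1 library a group no difference between diabetic and non-diabetic cells has a replicate check, and all intervals below are 95% intervals that cover counting error only.

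Dendritic cells take up antigen in tissues, present it on MHC class II molecules and carry it to lymph nodes, where they activate T cells. Their growth depends on the receptor Flt3, and the conventional type divides into type 1 cells, which rely on Batf3 and Irf8, and type 2 cells, many of which rely on Irf4. In skin they are mixed with monocytes, monocyte-derived cells and macrophages, which share many surface molecules with them. Cd209a encodes a DC-SIGN family lectin and is a marker of type 2 and monocyte-derived dendritic cells in mice. Klrd1 encodes CD94, a lectin-like subunit of receptors best known from natural killer cells.

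The non-diabetic library held 17559986 UMIs over 2026 barcodes and the diabetic library 31730014 over 2214. Members had a median of 20616.5 UMIs a cell in the non-diabetic and 19750 in the diabetic library, with ranges of 3577 to 70232 and 3148 to 29881. Other cells had medians of 13569 and 16243.5. The median mitochondrial share of members was 2.92% and 3.16%, against 3.61% and 3.82% in other cells. The libraries shared 6 barcode sequences, 1 of them in a non-diabetic member and none in a diabetic member. No doublet caller was run, and leaving out cells with over 3 times their library's median UMIs removed 1 member.

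The values that chose the members differed in make-up between the libraries. Cd209a (mm10 chr8:3743397-3748984, minus strand) had a median of 14 UMIs in the non-diabetic members, up to 184, and a median of 8 in the diabetic members, up to 89. Klrd1 (chr6:129591782-129598775, plus strand) had medians of 6 and 1 UMIs, with maxima of 39 and 16. Both genes were seen in 70 non-diabetic members (of 94) and 17 diabetic members (of 37). Cd209a alone was seen in 12 (12.8%) and 18 (48.6%), and Klrd1 alone in 12 and 2. Thus Cd209a without a Klrd1 UMI made up a larger part of the diabetic members. The members held 97.5% and 96.1% of all Cd209a UMIs of the cells passing the filter, and 95.4% and 88.2% of all Klrd1 UMIs. A Cd209a UMI was present in 34 and 16 other cells and a Klrd1 UMI in 28 and 4.

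**Figure D1:**
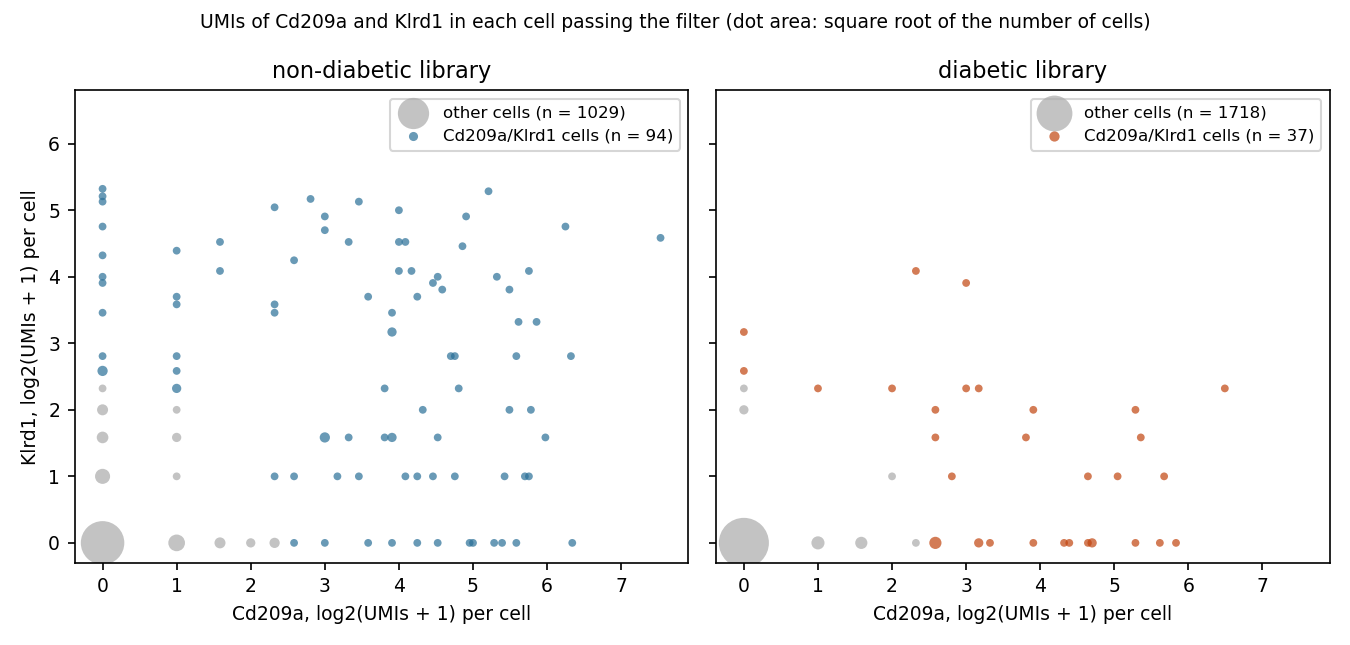
Klrd1 (vertical axis) against Cd209a (horizontal axis) in each cell passing the filter, both as log2(UMIs + 1), 1 panel a library, with dot area by the square root of the number of cells at a point. Coloured dots are the 94 non-diabetic and 37 diabetic members and grey dots other cells; 18 diabetic and 12 non-diabetic members lie at 0 Klrd1 UMIs.

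At the edge of the rule, cells with 5 or 6 summed UMIs (10 non-diabetic and 8 diabetic) had a median of 9.5 and 1.5 UMIs over the other given markers Cd7, H2-Oa, Klrb1b and Flt3. Cells with 3 or 4 summed UMIs (13 and 5), just outside the rule, had medians of 3 and 2. At least 3 UMIs of those markers were present in 8 of the 10 and 3 of the 8 cells just inside, and in 8 of the 13 and 2 of the 5 cells just outside. In the non-diabetic library most cells on both sides of the line therefore had at least 3 UMIs of the other markers. In the diabetic library most cells on both sides had fewer.

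The dendritic label was set beside genes the rule did not read. The other given markers came with the label, and the gene lists were chosen with earlier results of these data known. Neither is therefore an independent check. Levels are given as CPM, the summed UMIs of a gene divided by all summed UMIs of the cells named and scaled to 1000000, and a log2 ratio compares such sums. Members and other cells come from the same libraries, and the choice of members also selects genes that go with Cd209a and Klrd1, so what follows on members against other cells is a description without a test. A gene is counted as higher or lower when its CPM differed at least 2-fold in the same direction in both libraries, with a side at 0 set to a floor of 3 counts. Of 12337 genes with at least 20 UMIs, 762 were higher in members (6.18%) and 826 lower (6.7%). The median log2 ratio of all these genes was 0.12 in the non-diabetic and -0.01 in the diabetic library.

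The 4 given markers outside the rule were found in most members. At least 3 of their UMIs were present in 81 of 94 non-diabetic members (86.2%) and 27 of 37 diabetic members (73.0%), against 2.33% and 1.11% of other cells. They had none in 6 and 5 members. Flt3, the growth factor receptor of dendritic cells, was at 107 CPM in non-diabetic members against 6.47 in other cells, and at 74.7 against 3.16 in the diabetic library. Cd7, an immunoglobulin family membrane protein of lymphoid and some dendritic cells, was at 184 against 2.97 CPM and at 196 against 0.673. H2-Oa was at 119 against 3.27 and 86.0 against 1.31. Klrb1b, an inhibitory lectin-like receptor, was at 179 against 7.66 and 43.7 against 1.51. Its transcripts match those of the gene model Gm44511 at 99.0% over 678 bases, so reads may have been shared between the pair. For all 4 the members' level was many times that of the remaining cells in each library.

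Genes shared by conventional dendritic cells were higher in members as a whole list. All 10 measured were at least 2-fold higher in both libraries, with median log2 ratios of 3.72 and 4.25. Flt3, a given marker, was among them. Dpp4, a surface peptidase, was at 107 against 6.39 CPM and at 155 against 2.22. Kmo, an enzyme of tryptophan breakdown, was at 84.9 against 3.94 and at 69.1 against 3.16. Zbtb46, a transcription factor of conventional dendritic cells, was at 11.1 against 0.818 and 9.87 against 0.505. Bcl11a was at 56.1 against 5.50 and 77.5 against 4.34.

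Of the type 2 genes, 8 of 12 were higher, 1 of them Cd209a, which the rule read, and Itgam was lower, with median log2 ratios of 2.53 and 2.49. Clec10a, a galactose-binding lectin, was at 635 CPM against 25.1 and at 565 against 49.5. Irf4 was at 61.1 against 4.91 and at 33.8 against 3.23. Of the type 1 genes, 2 of 7 measured were higher, Batf3 and Sept3. The type 1 markers Xcr1 and Clec9a had no UMI in any member of either library, where 3 counts would be 1.52 CPM in the non-diabetic and 4.23 in the diabetic members. Irf8 was lower in members, at 45.5 against 98.7 CPM and at 66.2 against 111, and passed 2-fold only in the non-diabetic library. Of 12 genes of mature migratory dendritic cells Il4i1 and Tbc1d4 were higher and Anxa3 was lower, and of 6 measured plasmacytoid genes Spib and Lag3 were higher.

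Of 18 transcription factors of dendritic cells, 6 were higher (Irf4, Zbtb46, Batf3, Ikzf1, Bcl11a and Zfp366) and Zeb2 was lower, at 497 against 1432 CPM and 404 against 958. Spi1, the PU.1 factor of all myeloid cells, was at 576 against 411 and 593 against 459. Among 9 growth factor receptors, Flt3 and Kit were higher. Csf1r, the receptor of macrophage growth factor, was at 186 CPM against 361 and at 168 against 520, so that it was detected in members and was below the level of other cells.

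MHC class II presentation genes set the members apart from other cells by a wide margin. Of 13 measured genes 10 were higher in both libraries, with median log2 ratios of 3.41 and 3.13, and Lgmn, a lysosomal protease, was lower. Cd74, the invariant chain that guides class II molecules, was at 30431 CPM in non-diabetic members against 2867 in other cells, and at 30237 against 3885 in the diabetic library. H2-Ab1 (chr17:34257689-34269419), the beta chain of I-A, was at 11242 against 852 and at 11203 against 1233. H2-DMb2, a chain of the peptide-loading catalyst, was at 208 against 6.54 and at 396 against 35.1. Its transcripts are 95.7% identical to those of H2-DMb1 over 1081 bases, so reads may have been shared between the pair. Ciita, the coactivator that switches class II genes on, was at 228 against 22.7 and at 299 against 27.6. MHC class I and cross-presentation genes lay close to other cells, with Psmb8 alone of 13 higher and list medians of 0.40 and 0.45.

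Promoters of 4 of these genes are shown because class II genes of the members were higher together and are known to share a promoter module. That module ends in a Y box, whose core is ATTGG on the coding strand. The sequences are the 250 bases before each gene's start in RefSeq, build GRCm38.p6, on the gene's strand and 5′ to 3′, with capitals marking ATTGG or its reverse complement CCAAT. They lie at chr17:34287824-34288073 (H2-Aa, minus strand), chr17:34305617-34305866 (H2-Eb1, plus strand), chr17:34144999-34145248 (H2-DMb2, plus strand) and chr17:34092129-34092378 (H2-Oa, plus strand).
H2-Aa: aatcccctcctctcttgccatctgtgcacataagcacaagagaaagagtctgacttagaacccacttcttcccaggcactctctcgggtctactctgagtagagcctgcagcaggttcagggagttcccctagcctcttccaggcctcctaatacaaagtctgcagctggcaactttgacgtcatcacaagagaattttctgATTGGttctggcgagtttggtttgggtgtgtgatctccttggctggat
H2-Eb1: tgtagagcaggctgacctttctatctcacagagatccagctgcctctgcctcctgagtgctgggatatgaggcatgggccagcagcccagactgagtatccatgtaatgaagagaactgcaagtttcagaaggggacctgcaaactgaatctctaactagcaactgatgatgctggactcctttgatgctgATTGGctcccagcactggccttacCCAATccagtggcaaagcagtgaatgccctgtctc
H2-DMb2: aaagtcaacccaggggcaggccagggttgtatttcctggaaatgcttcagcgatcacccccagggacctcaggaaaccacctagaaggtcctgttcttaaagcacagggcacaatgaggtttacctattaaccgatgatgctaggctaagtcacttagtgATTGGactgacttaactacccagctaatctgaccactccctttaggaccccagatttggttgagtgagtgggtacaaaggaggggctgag
H2-Oa: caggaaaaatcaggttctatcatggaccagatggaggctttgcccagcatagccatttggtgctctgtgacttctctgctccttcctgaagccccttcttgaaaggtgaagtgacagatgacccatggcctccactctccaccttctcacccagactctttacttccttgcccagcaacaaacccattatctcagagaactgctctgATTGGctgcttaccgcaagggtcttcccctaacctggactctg

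ATTGG begins 48 bases before the start of H2-Aa, 59 before H2-Eb1, 90 before H2-DMb2 and 43 before H2-Oa, and H2-Eb1 also holds a CCAAT. RefSeq promoters were at hand for 11 of the 14 listed class II genes, and 9 of the 11 had ATTGG on the coding strand in at least 1 promoter, as did 22.1% of all 27025 genes in the table. Counted by promoter, 9 of the 13 class II promoters had it, and among all 32851 promoters 19.7% had it on the coding strand, 33.8% on either strand and 7.71% on the coding strand starting 40 to 100 bases before the start. The 9 genes include Lgmn, which was lower in members, and H2-DMa, whose only match lies 198 bases before a start. No class II count is given for the window of 40 to 100 bases. A match is a description of these letters and shows no binding.

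Lectin genes were also among those higher in members. Of 17 measured C-type lectin genes 7 were higher, 1 of them Cd209a, which the rule read, and 2, Clec4d and Clec4e, were lower. Cd209d (chr8:3871824-3878555), a neighbour and relative of Cd209a, was at 61.1 CPM against 1.12 in the non-diabetic library and at 431 against 0.269 in the diabetic library. Of 13 measured lectin-like genes of the natural killer gene complex on chromosome 6, 10 were higher and none lower in both libraries, with median log2 ratios of 3.90 and 5.39, or 3.90 and 5.26 with genes at 0 set to the floor. That list holds Klrd1 and Klrb1b, which were the rule's or the given markers. Klrk1, which encodes the activating receptor NKG2D, was at 122 against 5.13 CPM and at 101 against 2.42, with a UMI in 68 of 94 and 20 of 37 members.

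Natural killer cells were checked as another source of Klrd1. Of the 12 genes of their list, 9 had no UMI in the non-diabetic members, Ncr1, Klrb1c, Gzma, Gzmb, Prf1, Eomes, Nkg7, Klra8 and Il2rb, and Klrk1 made up most of the list's 127 CPM against 7.44 in other cells. In the diabetic members Gzma, Gzmb, Prf1 and Klra8 were at 0, and the list stood at 228 against 4.27 CPM. A single diabetic member held 100 of those list UMIs, the next highest 8, and all 31 Ncr1 UMIs, with 5 Klrd1 and no Cd209a or Flt3 UMI. Without it the diabetic level of the list was 90.4 CPM, and that of the T cell list was 26.2 in place of 98.7 CPM. In the non-diabetic library the T cell list was at 110 CPM in members and 110 in other cells. Il7r made up 104 CPM of the members' sum, and Cd3e, Cd3d, Trac, Trbc2, Trdc, Lck and Thy1 had no UMI in them. Cd3e and Cd3g had no UMI in diabetic members.

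Many markers of neutrophils, macrophages and classical monocytes were lower in members. Of the neutrophil genes 5 of 8 measured, 8 of 12 macrophage genes and 5 of 10 classical monocyte genes were lower. None of these lists had a gene higher in both libraries, but 2 monocyte genes were higher in the diabetic library alone. The monocyte gene Ccr2 lay near other cells, with log2 ratios of -0.15 and -0.43. The macrophage list summed to 1173 CPM in non-diabetic members against 5913 in other cells, and to 1160 against 9838 in the diabetic library. The monocyte list summed to 2370 against 9208 and to 1946 against 6177. Adgre1, which encodes F4/80, was at 17.2 against 112 and 19.7 against 247 CPM. The fibroblast, endothelial and keratinocyte list was at 16.2 and 8.46 CPM in members, against 295 and 48.2 in other cells. The B cell list summed higher in members, at 114 against 52.6 and at 81.7 against 48.1, with Ms4a1 at 0 in them. Its 3 measured genes had median log2 ratios of 0.84 and -0.46, and none was higher in both libraries. Of the mast cell and basophil list only Kit was seen.

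Inflammatory genes were also lower. Of 20 inflammatory mediators 16 were lower in both libraries and none higher, with median log2 ratios of -3.05 and -2.10. Il1b was at 2620 CPM in non-diabetic members against 5873, and at 2046 against 4726. Cxcl2, which attracts neutrophils, was at 1120 against 22157 and at 390 against 11766. Arg1, an arginine-degrading enzyme of wound macrophages, was at 16.2 against 2841 and at 9.87 against 1925. Acod1, which makes itaconate, had no UMI in members, which put its level at least 47.7-fold lower in the non-diabetic and at least 28.0-fold lower in the diabetic library. Of 19 cytokine and chemokine genes that act on T cells 8 were lower and none higher, and Il12b had no UMI in members. Pf4, Thbs1, Slpi, Cxcl1, Cxcl3, Il1a, Saa3, Fpr2, S100a8 and Pdpn completed the 12 genes with the lowest ratios. Of 16 lipid handling genes 11 were lower, as were Slc2a1, Pgk1 and Pkm among 13 glycolysis genes. Immediate early and stress genes, which tissue digestion can induce, had medians of 0.02 and 0.21, with Dnajb1 higher and Ier3 lower among 18.

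The genes with the highest ratios that belong to no list above included Ctnnd2, Ddr1, Ffar2, Cst7, Gpr171 and P2ry10. Ddr1, a collagen-binding receptor kinase, was at 94.5 CPM against 2.23 and at 98.7 against 0.538, with a UMI in 74 of 94 and 26 of 37 members. Ffar2, a receptor of short-chain fatty acids, was at 96.0 against 2.53 and 127 against 2.99. Gpr171 was at 184 against 11 and at 271 against 5.75, where 1 diabetic cell held 25.5% of its UMIs. Ctnnd2, a catenin best known from neurons, was at 59.1 against 1.12 and 76.1 against 0.740. Over all cells passing the filter, the genes whose level went most closely with the rule's sum were Ddr1 (Pearson r of 0.71 over 1123 non-diabetic and 0.68 over 1755 diabetic cells), Gpr171 (0.65 and 0.64) and Dpp4 (0.64 and 0.60). These correlations are across cells of 1 library each and share its depth.

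**Figure D2:**
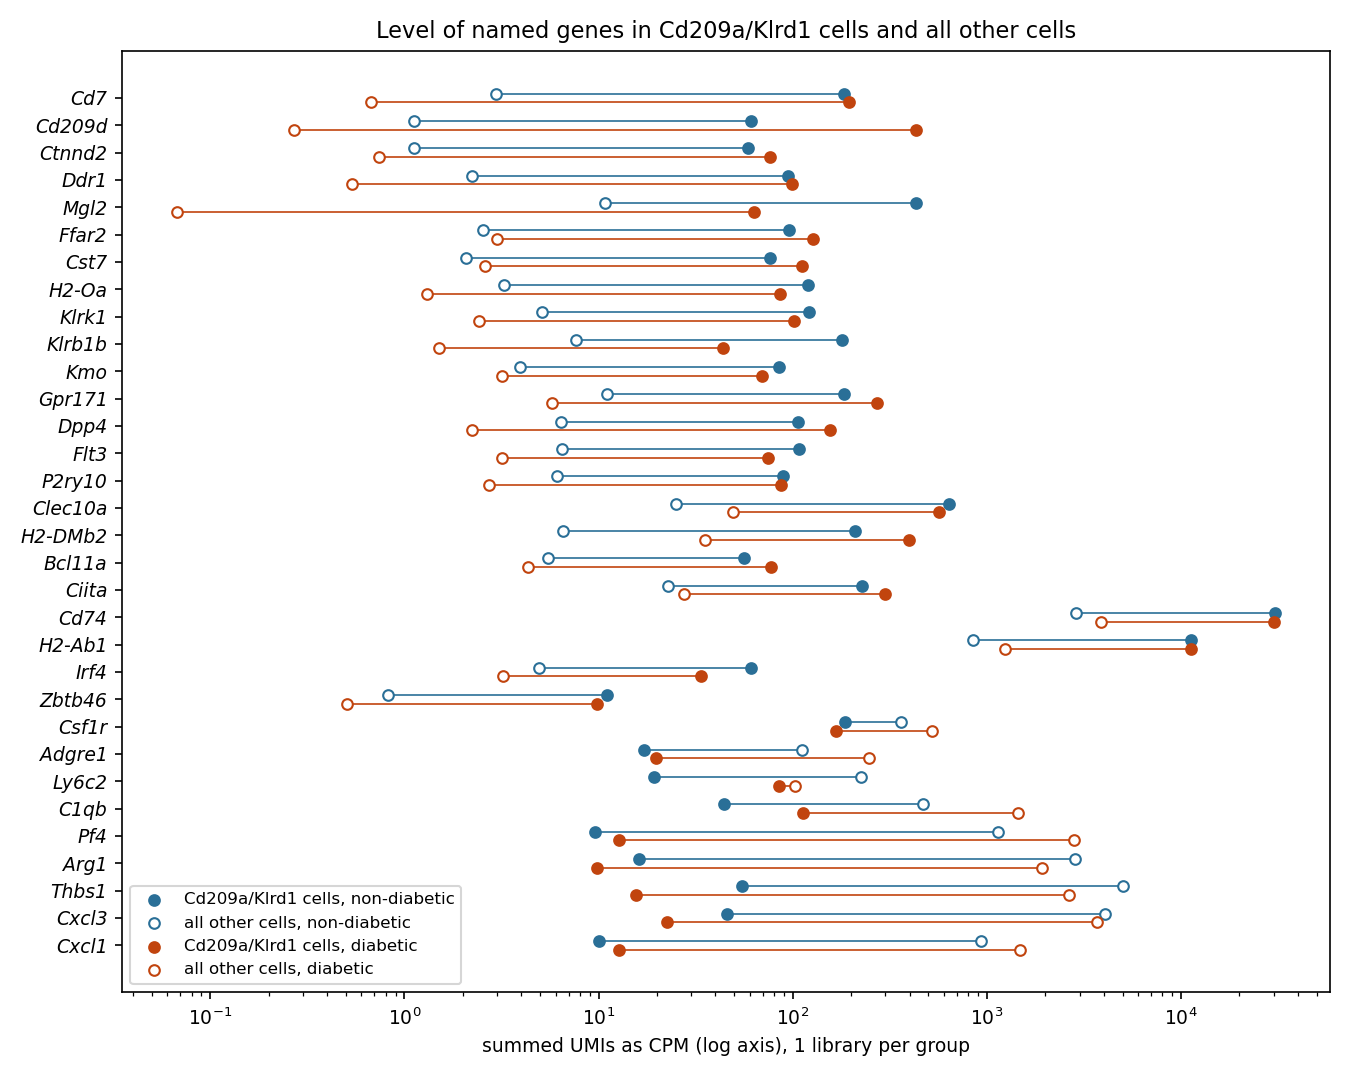
Summed CPM (log axis) of named genes in members (filled dots) and in other cells (open dots) of the non-diabetic and the diabetic library, with a line joining the dots of 1 library. Cd74 stands at 30431 and 30237 CPM in members against 2867 and 3885 in other cells, while Arg1 lies at 16.2 and 9.87 against 2841 and 1925.

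Members made up a smaller share of the diabetic library. Their share was 8.37% (6.82 to 10.1, exact Clopper-Pearson) in the non-diabetic library and 2.11% (1.49 to 2.89) in the diabetic one, a ratio of 3.97. Cells with at least 3 UMIs of Cd7, H2-Oa, Klrb1b and Flt3, which the rule did not read, were 9.35% and 2.62%. With every cell thinned to 5000 UMIs and at least 2 summed UMIs required, the expected shares were 9.01% and 1.76%, leaving out 141 and 94 shallower cells, and without thinning that lower requirement gave 10.4% and 2.74%. A share depends also on how many other cells were recovered in the isolation, and the labels give no count of cells per wound.

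Class II genes of members differed in their diabetic over non-diabetic ratio. Of 13 measured genes none was 2-fold higher in diabetic members, where 3.32% of 7692 measured genes were, and H2-Eb2 was lower, where 7.51% were. The interval of the ratio lay above 0 for 3 genes (H2-Aa, Ciita and H2-DMb2), below 0 for 4 (H2-Eb1, H2-Eb2, H2-Oa and Ctss) and held 0 for 6. The median log2 ratio of the list was -0.03, close to the -0.04 over all genes in members. In other cells the same list had a median of 0.43, and all genes 0.12. Cd74 had a log2 ratio of -0.01 in members (-0.03 to 0.01) and 0.44 in other cells. H2-Ab1 had 0.00 and 0.53, and H2-Eb1 -0.11 and 0.68. H2-Aa had 0.45 (0.41 to 0.48) and 1.20. H2-DMb2 had 0.93 (0.70 to 1.15) in members, Ciita 0.39 (0.15 to 0.63) and H2-Oa -0.46 (-0.90 to -0.06). Members over other cells, H2-DMb2 had log2 ratios of 4.98 in the non-diabetic and 3.50 in the diabetic library. Ciita had 3.33 and 3.44 and H2-Oa 5.17 and 6.03. Other cells thus rose more than members for H2-DMb2 and fell more for H2-Oa. Whether members and other cells differ in these ratios could not be tested with 1 library a group.

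Several lectin-like receptor genes were lower in diabetic members. Klrd1 was at 504 CPM in non-diabetic and 116 in diabetic members, but it was part of the rule and its values only describe the choice. Klrb1b was at 179 and 43.7 CPM, a log2 ratio of -2.02 (-2.62 to -1.51). It was lower in diabetic other cells too, as its log2 ratio of members over other cells was 4.54 and 4.86. Of 9 measured genes of the natural killer complex 5 were lower, the other three being Klre1, Klri1 and Klri2, and Klrb1f was higher, with a list median of -1.48 in members and -2.33 in other cells. Klrk1 was at 122 and 101 CPM, a ratio of -0.26 (-0.66 to 0.12) that was -1.24 with at least 10 summed UMIs. Its log2 ratio of members over other cells was 4.56 and 5.39, so other cells fell more. The receptor genes thus did not share 1 ratio.

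Members of the Cd209 family differed in their ratio, as did Mgl2 and Clec10a. Cd209a, part of the rule, was at 991 and 944 CPM. Cd209d was at 61.1 and 431 CPM, a log2 ratio of 2.82 (2.51 to 3.14), and was seen in 29 of 94 and 16 of 37 members. Cd209e had 1 UMI in the non-diabetic and 25 UMIs in 7 of the diabetic members, and Cd209b 0 and 11 UMIs in 5 cells. The other cells had at most 0.269 CPM of Cd209d in the diabetic library and no Cd209b or Cd209e UMI in either. Mgl2 (chr11:70130329-70137550) was at 431 and 63.4 CPM, a log2 ratio of -2.75 (-3.23 to -2.33), and was seen in 42 and 12 members. Other cells with an Mgl2 UMI numbered 31 in the non-diabetic and 2 in the diabetic library (3.01% and 0.116%). The log2 ratio of members over other cells was 5.32 and 9.57, so Mgl2 was lower in diabetic other cells too, and by more. A single non-diabetic member held 23.4% of that library's member UMIs of Mgl2, and without it Mgl2 was at 342 CPM. Its near-identical neighbour Clec10a (chr11:70156197-70170834) was at 635 and 565 CPM, a log2 ratio of -0.17. Transcripts of the pair agree over 727 bases at 96.4%, so reads may have been shared between them, while no transcript with 95% identity over 200 bases was found for Cd209a, Cd209d or Klrd1.

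Ltb (chr17:35194439-35196320), the beta chain of lymphotoxin, had a high ratio that was spread over many members. It was at 33.3 CPM in non-diabetic members, with a UMI in 25 of 94 cells, and at 371 CPM in diabetic members, with a UMI in 31 of 37. The log2 ratio was 3.47 (3.08 to 3.89), and in other cells, at 2.23 and 22.6 CPM, it was 3.32. The ratio was therefore of like size in the remaining cells. Thinned to 5000 UMIs, the expected share of members with an Ltb UMI was 11.9% and 61.1%, against 1.04% and 8.86% of other cells. Id2, a transcriptional inhibitor needed by dendritic cells, was at 146 and 533 CPM, a log2 ratio of 1.87 (1.64 to 2.09), against 0.71 in other cells.

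A few chemokine receptor genes were lower in diabetic members. Of 17 measured chemokine receptor and adhesion genes 4 were lower (Ccr1, Ccr2, Ccr7 and Cx3cr1) and Ccr6 was higher, with a list median of -0.54 against -0.46 in other cells. Ccr7 (chr11:99144196-99155077), the receptor that guides dendritic cells to lymph nodes, was at 155 CPM in non-diabetic members and 7.05 in diabetic members, a log2 ratio of -4.32 (-6.09 to -3.22). Its UMIs came from 14 non-diabetic members, 1 of which held 38.4%, and from 2 diabetic members, so few cells set this value, and in other cells it was at 27.6 and 4.47 CPM. The log2 ratio was -0.93 among members chosen on Cd209a alone and -1.15 among cells chosen by the other 4 markers. With Cd209a alone the ratio of non-diabetic members to other cells was -1.43, in place of 2.49. Ccr2, which draws monocytes out of the marrow, was at 788 and 344 CPM, a log2 ratio of -1.19 against -0.91 in other cells, and -2.06 among members with at least 1 UMI of each rule gene. Ccr6 was at 1.52 and 25.4 CPM, in 3 and 11 members, and at 0.446 and 0.437 CPM in other cells.

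Costimulatory genes as a list had a higher median ratio in members than in other cells, a difference that was not tested. The median log2 ratio over 11 T cell costimulatory and inhibitory ligands was 0.61 in members and -1.01 in other cells. Tnfsf4, which encodes OX40 ligand, was at 17.2 and 71.9 CPM, a log2 ratio of 2.06 (1.41 to 2.74), against -0.33. Cd274, which encodes PD-L1, was at 41.4 and 83.2 CPM, a log2 ratio of 1.01 that was 0.37 with at least 3 summed UMIs. Cd86 was at 204 and 309 CPM, a log2 ratio of 0.60 (0.35 to 0.84), against -0.61 in other cells. Cd80 was at 74.7 and 35.2 CPM and Tnfsf9, the ligand of 4-1BB, at 465 and 226. Both were lower in diabetic other cells too. Members over other cells, Cd80 had log2 ratios of -0.19 in the non-diabetic and 0.17 in the diabetic library, and Tnfsf9 0.21 and 0.27. The ligands thus differed in direction among themselves. Of the growth factor receptors Kit was higher, at 28.8 and 74.7 CPM with a log2 ratio of 1.38 (0.81 to 1.94), and Flt3 had a log2 ratio of -0.51 (-0.98 to -0.08).

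**Figure D3:**
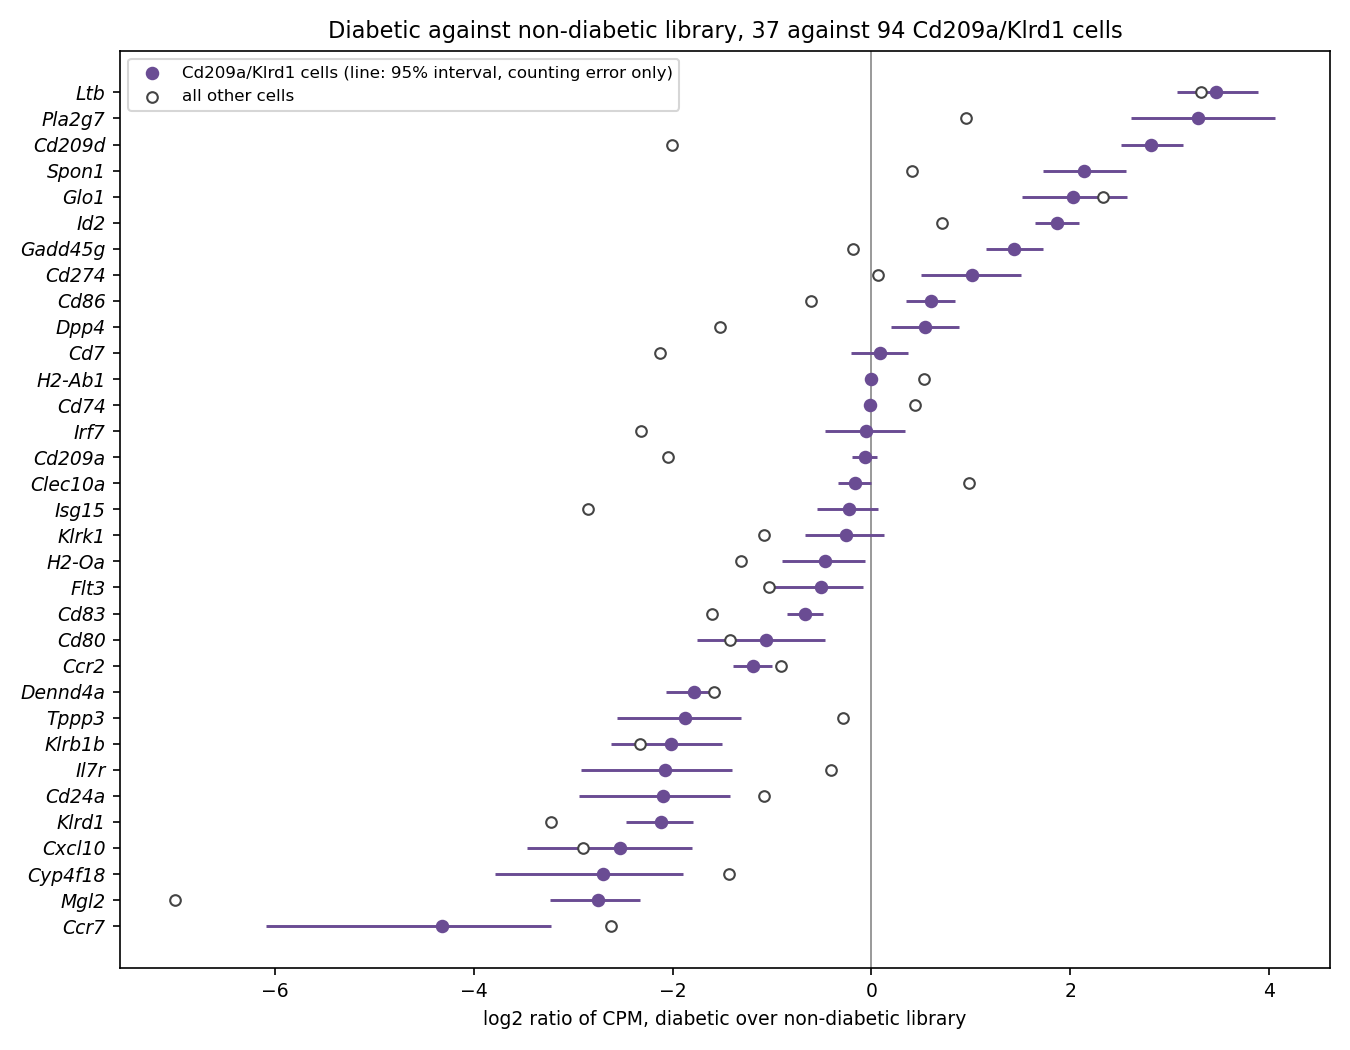
Log2 ratio of CPM of the diabetic to the non-diabetic library for named genes, in members (filled dots, with 95% intervals that cover counting error only) and in other cells (open dots). Ltb lies at 3.47 in members and 3.32 in other cells, whereas Cd209d lies at 2.82 and -2.01.

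Interferon-response genes had lower ratios in other cells than in members. The list median of 20 measured genes was -0.09 in members and -2.10 in other cells. In members 4 were higher and 4 lower. Isg15 was at 194 and 165 CPM in members and at 318 and 44.0 in other cells. Irf7, the master factor of the response, was at 106 and 101 CPM in members and at 178 and 35.6 in other cells. Against other cells the list thus had a median of -0.57 in the non-diabetic library and 1.24 in the diabetic library. A single diabetic member of 15032 UMIs held 34.8% of the list's UMIs. Without it the diabetic medians were -0.75 against non-diabetic members and 0.78 against other cells, Isg15 was at 102 CPM and Irf7 at 79.2. Among members with at least 10 summed UMIs these medians were -1.82 and -0.42, so the list's level depended on which diabetic members were counted.

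Among the 1513 genes at 100 CPM or more in members of a library, 21 were 2-fold higher in diabetic members (1.39%) and 48 lower (3.17%). Pla2g7, an enzyme that degrades platelet-activating factor, was at 11.1 and 110 CPM, a log2 ratio of 3.28 against 0.95 in other cells. Spon1 was at 40.9 and 180 CPM, a ratio of 2.14 against 0.41, and Gadd45g at 104 and 282, a ratio of 1.44 against -0.19 that was 0.75 among cells chosen by the other 4 markers. Glo1 and Cirbp had ratios of 2.03 and 1.99 in members and 2.34 and 1.64 in other cells. Chil3 and Hspb1 rested on single diabetic cells, which held 82 of 83 and 142 of 143 of their UMIs. Saa3, an acute-phase protein gene, was at 2.53 and 73.3 CPM in members beside 206 and 16717 in other cells, and free RNA from those cells as a source was not tested. Tpm3-rs7, at 7.58 and 321 CPM, is 99.1% identical to Tpm3 over 2108 bases and its value is uncertain.

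Of the genes lower in diabetic members, Tppp3 was at 132 and 35.2 CPM, a log2 ratio of -1.88 against -0.28 in other cells. Il7r, the receptor of interleukin 7, was at 104 and 24.0 CPM, a ratio of -2.08 against -0.41, and Lmna, which encodes lamin A, at 135 and 39.5, a ratio of -1.75 against -0.16. Cyp4f18, Cxcl10 and Dennd4a had ratios of -2.70, -2.53 and -1.78 in members and -1.43, -2.90 and -1.59 in other cells. The ratio of Il7r was -0.45 among members with at least 1 UMI of each rule gene. Those of Tppp3 and Lmna were -0.91 and -0.64 without members holding 2 or more natural killer list UMIs. In non-diabetic members these UMIs were mostly of Klrk1.

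**Figure D4:**
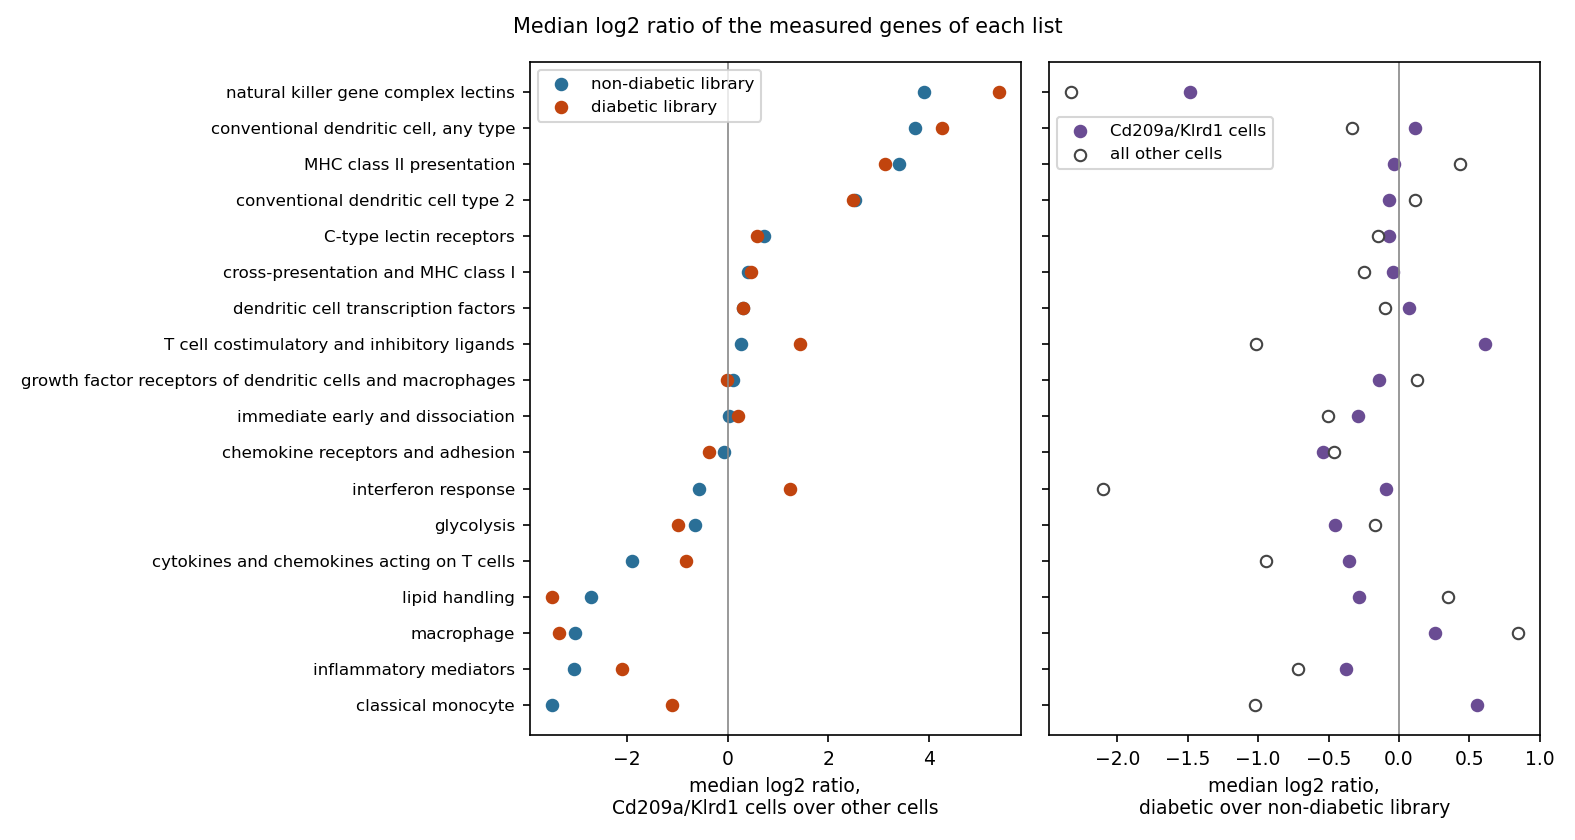
Median log2 ratio of the measured genes of each list, on the left for members over other cells in both libraries and on the right for the diabetic over the non-diabetic library in members (filled) and other cells (open). The class II list lies at 3.41 and 3.13 on the left and at -0.03 and 0.43 on the right, and the interferon list at -0.09 in members and -2.10 in other cells.

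The non-diabetic members varied among themselves. The splits that follow were chosen after values were seen, each cuts a range of UMI counts rather than a cell type, and none was tested. The 10 members with at least 2 Ccr7 UMIs had, against the 80 with none, 233 and 12.3 CPM of Il4i1, an amino acid oxidase of mature dendritic cells, 194 and 11.7 of the chemokine gene Ccl22, and 203 and 23.4 of Cd274. Single cells held much of these sums, 26 of the 47 Il4i1 UMIs and 276 of the 488 Fabp5 UMIs, and without its top cell Il4i1 was at 119 CPM. Fabp5 was at 2421 and 119 CPM, and at 1183 without its top cell, whereas Lyz2 was at 357 and 2764, Cd7 at 29.8 and 193 and Clec4b1 at 0 and 114. The split was made on Ccr7 itself, and of the 11 other genes of the mature migratory list 10 were at least 2-fold higher and 1 lower in the members with Ccr7. Without the top cell of each gene 5 of the 10 were still 2-fold higher, Il4i1, Ccl22, Tbc1d4, Socs2 and Relb.

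The 34 members with at least 3 Mgl2 UMIs had 62.2 CPM of Cd7 against 284 in the 52 with none, 93.3 against 33.7 of Irf4 and 367 against 113 of Mrc1. Without the top cell of each gene, these 34 members' levels were 47.6 CPM of Cd7, 65.9 of Irf4 and 287 of Mrc1. The 36 members with more Klrd1 than Cd209a UMIs had 369 CPM of Ccr7 against 22.1 in the other 58, 178 against 589 of Mgl2 and 1181 against 3214 of Lyz2. Cd74 was at 30738 and 30239 CPM and Flt3 at 124 and 96.7 in that split. Klrb1b was at 212 and 159 CPM and Klrk1 at 142 and 109. A single cell held 118 of the 280 Ccr7 UMIs of the first group, and without it Ccr7 was at 221 CPM. Lyz2 was at 520 CPM there without its top cell.

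Cells outside the rule that held at least 3 UMIs of Cd7, H2-Oa, Klrb1b and Flt3, 24 in the non-diabetic and 19 in the diabetic library, also had high Cd74, at 23054 and 32710 CPM. They had more Irf8 than members, at 258 against 45.5 and 174 against 66.2 CPM, or 185 and 91.6 CPM without the cell that held the most. Ccr7 was at 452 against 155 CPM in the non-diabetic library, where 6 of the 24 cells had a UMI and 1 of them held 83 of the 203 UMIs, and at 279 CPM without that cell. In the diabetic library it was at 249 against 7.05 CPM, where 3 of the 19 cells had a UMI and 1 held 76 of the 89, and at 38.4 CPM without it. Few cells thus set the Ccr7 level outside the rule.

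DNA replication genes lay near other cells at equal depth, and 1 cell set most of the G2/M level of non-diabetic members. Of 15 DNA replication genes 8 were higher in members, but at 5000 UMIs a cell the expected share with at least 2 UMIs of the list was 19.1% in members and 18.4% in other cells of the non-diabetic library, and 20.6% and 21.2% in the diabetic library. The G2/M list was at 237 CPM in non-diabetic members, where 1 cell of 70232 UMIs held 403 of the list's UMIs and the next 8. Without that cell it was at 35.1 CPM, against 30.5 in other cells. In the diabetic library the G2/M list was at 95.8 CPM in members and 101 in other cells. At 5000 UMIs a cell, the expected share with at least 2 G2/M UMIs was higher in members. It was 3.03% of 92 members against 1.70% of 890 other cells in the non-diabetic library. In the diabetic library it was 6.40% of 35 against 3.37% of 1626.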

How the data were processed

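Single-cell 3' RNA libraries of cells pooled from 2 mice a group were measured. The values are UMI counts, not normalized, as the authors deposited them from Cell Ranger 3.0.2, per the file headers. The submitters' processing notes name mm10 as the build, and no source used here gives the annotation release. Both matrices list 31053 genes, of which 71 share a symbol and were not named. Groups came from the disease state in the labels.

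Counts were summed over members and over other cells of each library (Python 3.11.15, numpy 2.4.6, scipy 1.17.1). Log2 ratios had 0.5 counts added. A gene was measured with at least 20 UMIs over both sums. Genes were called on a CPM ratio of at least 2, where a side at 0 counts was set to a floor of 3 and the other side had to hold more than 3. Ratios have conditional exact binomial intervals, sums exact Poisson intervals and shares exact Clopper-Pearson intervals, all at 95% and for counting error only. No test across libraries was possible with 1 library a group. The calculation was tested on simulated data. Alternative scalings used edgeR 4.0.16 and DESeq2 1.42.0 size factors. Near-identical transcripts came from BLAST 2.17.0 against GENCODE transcripts, which also gave gene coordinates.

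The members and all 32 gene lists were chosen with earlier results of these data known. Named genes were the 20 highest and 12 lowest ratios at 50 CPM or more, the 12 highest and 12 lowest diabetic ratios at 100 CPM or more, the 6 given markers, up to 4 genes a list and a set of dendritic, natural killer and myeloid genes. Cd209b, Cd209e, Ccr6, Tnfsf4, the split genes and genes named as the called members of a list fall outside that rule and were chosen after their values were seen.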

Additional observations from a re-analysis of the deposited data

Results flagged for a closer look

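For 5 flagged genes the ratio of members to other cells had opposite directions in the 2 libraries, each by more than 2-fold. The difference was not tested in any of them. They are not all the genes with opposite directions, since Isg15 had -0.71 in the non-diabetic and 1.91 in the diabetic library. Ube2c had log2 ratios of 5.34 in the non-diabetic and -3.56 in the diabetic library, a difference of -8.91, and all 122 of its non-diabetic member UMIs were in 1 cell. Fcrls had 2.37 and -4.06, a difference of -6.43. Pltp had 1.17 and -1.51, a difference of -2.68. Zbp1 had -1.12 and 1.10, a difference of 2.22, and Ifit3 had -1.53 and 2.77, a difference of 4.3, with 37 UMIs in 5 diabetic members.

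Among the barcodes that failed the cell filter, 1 in the diabetic library had at least 5 summed UMIs of Cd209a and Klrd1 and none in the non-diabetic library.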

How the results depend on the processing

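No paired analysis was possible because each group is 1 library and no test was made. Of 259 gene and list values recomputed under 16 settings (4144 comparisons), 26 reversed, over 11 results. Another 664 did not reverse but lay outside the interval of the main value, and 3454 lay inside it. Of the settings, 4 were chosen after seeing the data: leaving out single members that stood apart, and choosing cells by the other 4 given markers. The cause of a move was not tested unless the setting removes the cells that set the value.

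The non-diabetic share was 6.14% with at least 5 Cd209a UMIs alone, 6.59% with at least 1 UMI of each gene, 6.46% with a filter of 200 genes and 20% mitochondrial UMIs, 10.4% with 1000 genes and 5%, and 3.92% without members holding 2 or more natural killer list UMIs. The diabetic share was 1.20% with at least 10 summed UMIs, 1.03% with 1 UMI of each gene and 1.32% without members holding natural killer list UMIs. Klrk1 made up 122 of that list's 127 CPM in non-diabetic members. In that library the setting thus left out mainly members with Klrk1 UMIs. With at least 100 UMIs a gene, 457 genes were higher in members, 35 higher and 125 lower in diabetic members, and with no minimum 1094 were higher and 969 lower in diabetic members.

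Reversed log2 ratios were as follows. With at least 10 summed UMIs, the diabetic over non-diabetic ratio was -0.72 for Chil3, -1.93 for C1qb and -0.076 for Ly6c2, and members over others in the diabetic library -0.74 for Isg15 and -0.42 for the interferon list. Ccr7 members over others in the non-diabetic library was -1.43 with Cd209a alone, -0.28 with 1 UMI of each gene and -0.21 after thinning. With 1 UMI of each gene, Ube2c was -4.92 over others and 2.09 diabetic over non-diabetic, C1qb -1.82 and Top2a -0.80. Thinning gave -1.24 for Chil3 and -2.21 for C1qb. Without cells over 3 times the median, Ube2c was -2.56 and 1.43, and without the 2 single members -2.54 and 1.48. Without members holding 2 or more natural killer list UMIs, Ube2c was -1.32 and 0.94 and Chil3 -2.51. The same setting gave, in the diabetic library over others, Isg15 -0.27, Irf7 -0.058 and the interferon list -0.55. By the other 4 markers C1qb was -0.23 and Cxcl2 0.21.

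The small summed count limits the diabetic members most, since 3 counts in them are 4.23 CPM. The 37 diabetic members held 709519 UMIs and the 94 non-diabetic members 1979882.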
